A study of Mus musculus with 6 samples.

Results

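The complement and coagulation genes of liver were followed in 6 messenger RNA libraries from C57BL/6 mice. The 37 genes were chosen by name from the deposited table, which lists 34745 genes, and all 37 were found there once. They fall into 10 genes that start and amplify complement, 6 genes of terminal complement, 13 clotting factors, and 8 inhibitors and genes of fibrinolysis.

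Complement and coagulation proteins are made mainly by hepatocytes and secreted into blood. Complement marks microbes and damaged cells through the classical, lectin and alternative pathways, which meet at C3, and ends in a ring of terminal proteins that pierces the membrane. Coagulation is a chain of serine proteases that ends with thrombin cutting fibrinogen into fibrin, held in check by serine protease inhibitors, by the protein C system and by plasmin, which dissolves the clot.

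The male groups were liver tumour (labelled HCC, hepatocellular carcinoma) and precancerous liver of Hras12V transgenic mice, and normal liver of wild-type mice, all 9 months old and untreated. The female groups were the same 3 tissues at 15 months, and the effects of sex and of age cannot be told apart. Each of the 6 groups holds 1 library. The promoter that drives the transgene, the number of mice behind a library, and whether a tumour and a precancerous library share a mouse are not given in the sources used here. Transgenic and wild-type livers differ in genotype as well as in tissue state.

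Counts summed to between 5996585 and 18434508 per library. The members together took 4.85% of counts in male tumour, 5.10% in male precancerous and 4.13% in male normal liver, and 5.69%, 5.33% and 4.62% in the female tumour, precancerous and normal libraries. The smallest count of any member was 269, for Mbl1 in male tumour, so counting error was small for every member. Hepatocyte markers were high in all 6 libraries: the 7 listed hepatocyte markers found in the table (of 8) summed to between 37130 and 77440 FPKM (a count divided by the gene's length and by all counts of its library). In bulk tissue, fewer cells of a type and less RNA per cell cannot be told apart.

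All 37 members passed the level for testing, 1 FPKM or more in 2 libraries or more, as did 11435 genes in all. Tissue effects came from edgeR's quasi-likelihood test, fitted to the 6 libraries together with terms for sex and tissue. Calls needed an adjusted p below 0.05, by Benjamini and Hochberg's method over the tested genes. With 1 library per group, the error comes from how far tissue differences disagree between the 9-month male and 15-month female libraries. edgeR draws each gene's error toward a trend over all tested genes, so a gene's standard error is not its own disagreement alone. Since the labels name no separate mice, p-values measure this pooled disagreement in these libraries and not the spread between mice. By the median FPKM over the libraries, C3 stood first at 2139 FPKM, followed by the fibrinogen genes Fgg, Fgb and Fga at 1519, 1343 and 1319 FPKM. Plg, which encodes plasminogen, stood at 927 FPKM and Kng1 at 685 FPKM. The lowest members were Pros1 at 17.9, C2 at 16.0 and C6 at 11.9 FPKM.

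Tumour was set against precancerous liver, both from Hras12V transgenic mice. Of the 37 members 11 fell and 1 rose. Over all tested genes 12.1% were called lower and 13.8% higher. The members' median log2 fold change was -0.45, beside 0.03 for all tested genes. By role, 5 of 10 genes of complement activation fell, as did 1 of 6 of terminal complement, 4 of 13 clotting factors and 1 of 8 inhibitors and genes of fibrinolysis. The gene that rose was the clotting factor F11. The count of members called lower was 1 without the male precancerous library, 2 without the female precancerous library and 7 without the female tumour library, each fit having 1 residual degree of freedom. Mbl1 was the 1 call of the 12 made whichever library was left out. Klkb1 was lost without the male precancerous library, and Masp1 and C9 without either precancerous library. C1ra, Mbl2, F7, F13b and F11 were lost without either precancerous library or the female tumour, C1s1 and Pros1 without any of these or the male tumour, and F9 without any single library.

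Tumour was also set against normal wild-type liver. Here 10 members fell and 5 rose, where 16.1% of all tested genes were called lower and 17.3% higher. Complement activation had 3 members lower and terminal complement 3, with none higher in either. Clotting factors were split, 3 higher and 3 lower, and the inhibitors and genes of fibrinolysis had 2 higher and 1 lower. The count of members called lower was 5 without the male and 6 without the female precancerous library. The count of members called higher lay between 1 and 3 whichever of the 6 libraries was left out. Of the 15 calls 6 were made whichever library was left out: Mbl1, Masp1, C8g, C9, Klkb1 and Kng1. C1ra was called only when the male tumour was left out, F10 only without male normal liver, Cfi only without the female tumour, and F11 only without the male tumour or male normal liver. C8b was lost without the male tumour, male normal or either precancerous library, F13b without the male precancerous, female tumour or female normal library, and F5, Proc and Serpinf2 without any single library. The same tumour libraries serve both comparisons, so they are not independent.

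**Figure D1:**
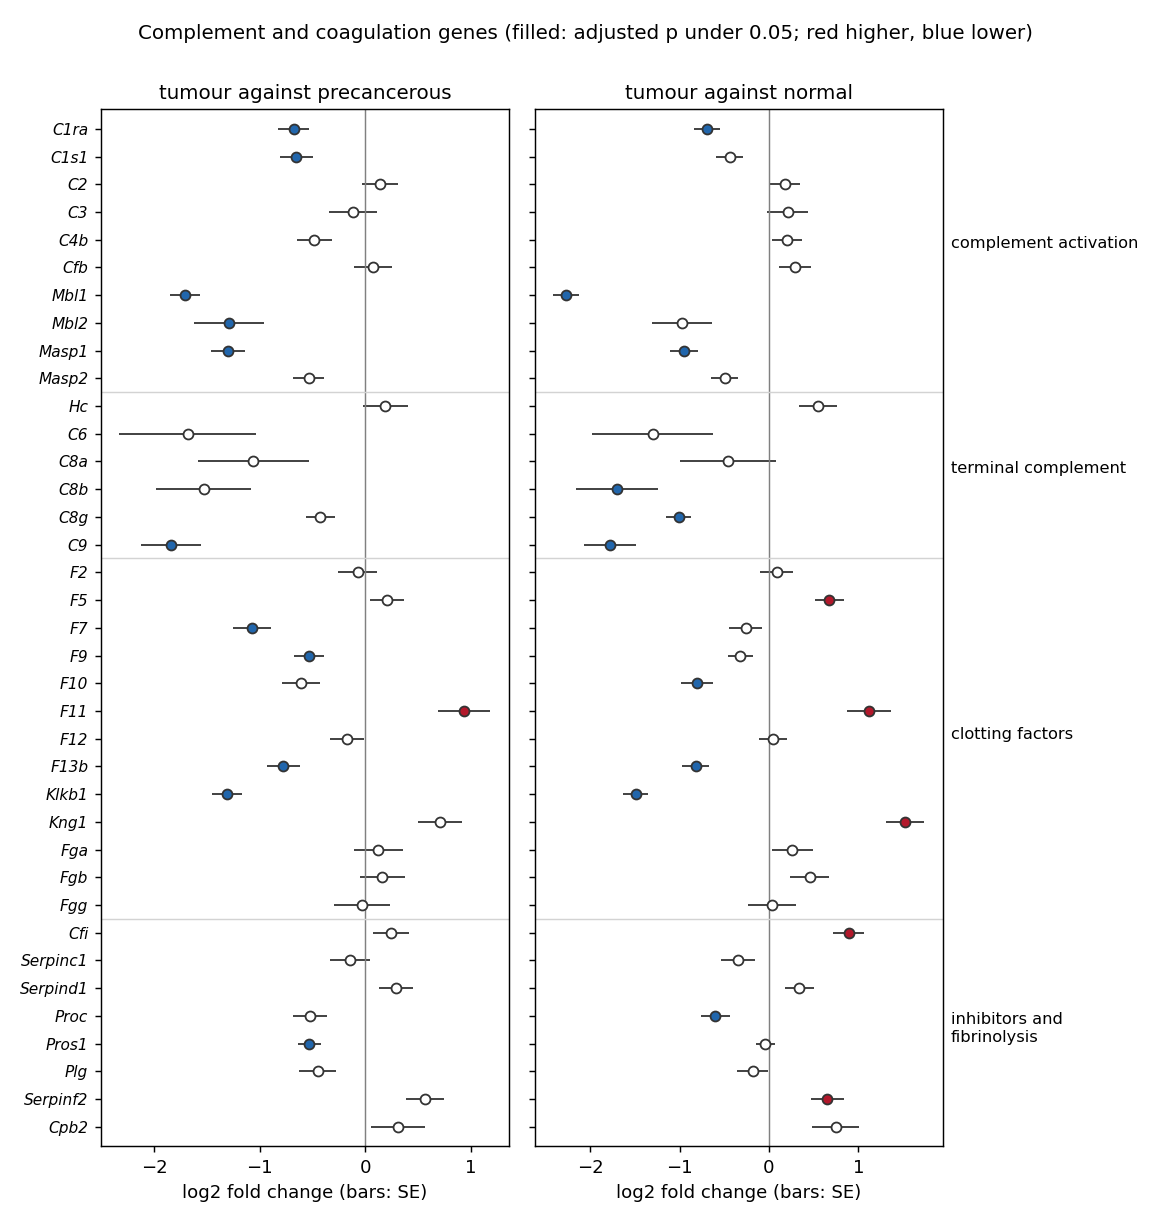
Log2 fold change of each of the 37 members by edgeR, with bars for the standard error, in tumour against precancerous liver (left) and tumour against normal liver (right), grouped by role. Filled points passed an adjusted p under 0.05, blue for lower and red for higher. Among members filled in both panels, Mbl1, Masp1, C9 and Klkb1 lie furthest left, and F11 lies to the right. C6, open in both panels, and C8b, open in the left panel, lie further left than Masp1. In the right panel Kng1 lies further right than F11.

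Among the genes of complement activation, the largest falls between tumour and precancerous liver were those of Mbl1, Masp1 and Mbl2, which start the lectin pathway. Mbl1 and Mbl2 encode mannose-binding lectins, which recognise sugars on microbes, and Masp1 and Masp2 encode the proteases bound to them. Mbl1 stood at 39.7 FPKM in tumour, 135.8 in precancerous and 213.2 in normal liver of males, and at 23.9 FPKM in tumour, 72.4 in precancerous and 99.7 in normal liver of females. Both tumours lay below all 4 other libraries. Mbl1 fell by 1.71 on the log2 scale (SE 0.14, edgeR adjusted p = 0.00337) against precancerous liver and fell by 2.27 (SE 0.14, adjusted p = 0.00128) against normal liver.

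Mbl2 stood at 195.9 FPKM in tumour, 396.6 in precancerous and 234.0 in normal liver of males, and at 153.4 FPKM in tumour, 450.4 in precancerous and 463.6 in normal liver of females. The male normal library lay near the tumours and the female one near the precancerous libraries. Mbl2 fell by 1.29 on the log2 scale against precancerous liver (SE 0.33, edgeR adjusted p = 0.045) and was not called against normal liver (log2 fold change -0.97, adjusted p = 0.0799). The call was made in 5 of 9 alternative fits, with adjusted p up to 0.182. Of the FPKM of both lectins together, Mbl1 made up 16.8% in male tumour, 25.5% in male precancerous and 47.7% in male normal liver. The female shares were 13.5% in tumour, 13.9% in precancerous and 17.7% in normal liver.

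Masp1 stood at 16.3 FPKM in tumour, 39.6 in precancerous and 36.2 in normal liver of males, and at 23.0 FPKM in tumour, 55.5 in precancerous and 37.1 in normal liver of females. The tumours did not overlap the other libraries. Masp1 fell by 1.30 on the log2 scale against precancerous (SE 0.16, edgeR adjusted p = 0.00689) and by 0.95 against normal liver (SE 0.16, adjusted p = 0.0108). Masp2 had 42.4 and 44.4 FPKM in male and female tumour, against 58.0 and 65.5 in precancerous liver, and missed the threshold in both comparisons (adjusted p = 0.055 and 0.0579 by edgeR). In GENCODE, 54.9% of the exonic bases of Masp2 lie under exons of Tardbp on the opposite strand, so its counts are uncertain where strand was not used.

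The proteases of the classical pathway moved less than Mbl1, Mbl2 and Masp1 in both tumour comparisons. C1ra and C1s1 encode the C1r and C1s proteases, which C1q carries, and C1s cleaves C4 and C2. C1ra stood at 51.1 FPKM in male and 55.8 in female tumour, against 73.8 and 94.9 in precancerous and 74.5 and 96.2 in normal liver. It fell by 0.68 on the log2 scale against precancerous liver (SE 0.14, edgeR adjusted p = 0.0275) and by 0.70 against normal liver (adjusted p = 0.0206). C1s1 stood at 95.9 and 68.8 FPKM in male and female tumour, against 144.4 and 108.1 in precancerous and 120.9 and 96.1 in normal liver. It fell by 0.65 against precancerous liver (SE 0.16, adjusted p = 0.0359) and was not called against normal liver (log2 fold change -0.44, adjusted p = 0.0838). Exons of Gm16567 on the opposite strand cover 18.4% of its exonic bases. C1ra and C1s1 lie 6901 bases apart on chromosome 6.

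C3, C4b, C2 and Cfb, the components that C1, the lectins and the alternative pathway act on, did not pass between tumour and either other tissue by edgeR. C3 ranged from 1364 FPKM in male normal to 2429 FPKM in female precancerous liver, and its log2 fold changes were -0.11 against precancerous and 0.21 against normal liver (edgeR adjusted p = 0.752 and 0.522). C4b had 231.6 and 339.5 FPKM in male and female tumour, against 314.2 and 466.5 in precancerous and 200.6 and 281.7 in normal liver. Its highest library in each sex was the precancerous one, and its log2 fold change against precancerous liver was -0.48 (edgeR adjusted p = 0.0956), which DESeq2 called (-0.50, adjusted p = 0.00118). C2 and Cfb, which supply the cutting subunits of the C3 convertases, had log2 fold changes of 0.14 and 0.07 against precancerous liver (adjusted p = 0.591 and 0.805). These neighbours are 85 bases apart on chromosome 17, and a readthrough gene, Gm20547, covers 42.8% and 79.5% of their exonic bases on the same strand. Gm20547 itself had 2479 counts in male tumour against 1186 in male precancerous liver, and 1746 in female tumour against 1713 in female precancerous liver.

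**Figure D2:**
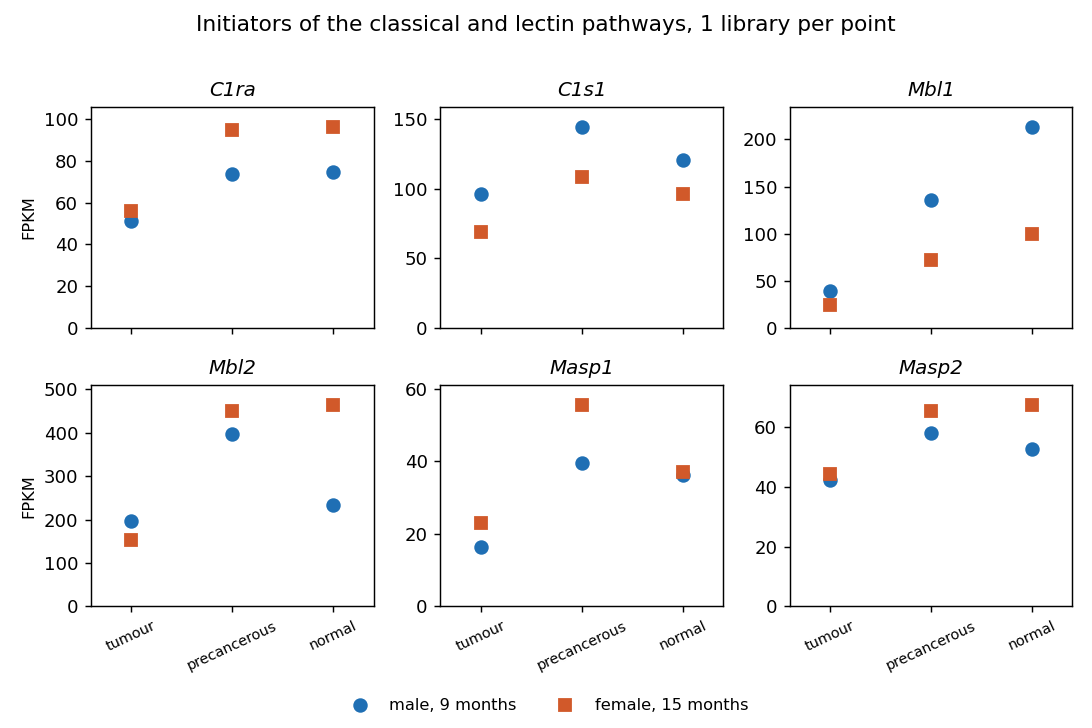
FPKM of 6 genes that start the classical and lectin pathways in tumour, precancerous and normal liver, 1 point per library, with males as circles and females as squares. Mbl1 and Masp1 are lower in both tumours than in the other 4 libraries, while Mbl2 in male normal liver, at 234.0 FPKM, lies close to the male tumour at 195.9.

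Terminal complement had the median log2 fold change furthest from 0 of the 4 roles, at -1.29 between tumour and precancerous liver, -1.15 between tumour and normal liver and 1.56 between males and females. Its members encode C5 (Hc, cut to start the attack complex), C6, the 3 subunits of C8 and C9, the subunit that forms the pore. C9 stood at 57.1 FPKM in tumour, 224.5 in precancerous and 274.8 in normal liver of males, and at 22.2 FPKM in tumour, 71.4 in precancerous and 51.5 in normal liver of females. Within each sex the tumour was lowest. C9 fell by 1.84 on the log2 scale against precancerous (SE 0.29, edgeR adjusted p = 0.0125) and by 1.78 against normal liver (SE 0.29, adjusted p = 0.01).

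C8b stood at 23.2 FPKM in tumour, 102.3 in precancerous and 143.0 in normal liver of males, and at 16.6 FPKM in tumour, 33.8 in precancerous and 28.2 in normal liver of females. It fell by 1.70 on the log2 scale against normal liver (SE 0.46, edgeR adjusted p = 0.0426) and missed the threshold against precancerous liver (log2 fold change -1.53, adjusted p = 0.0627). The call against normal liver was made in 4 of 9 alternative fits, with adjusted p up to 0.237, and the estimate lay between -2.50 and -0.998 with a library left out. C8g, which encodes the lipocalin subunit of C8, had 46.0 and 32.3 FPKM in male and female tumour, against 59.9 and 42.8 in precancerous and 86.7 and 66.7 in normal liver. It was lowest in tumour and highest in normal liver in both sexes, and fell by 1.01 against normal liver (SE 0.14, adjusted p = 0.00602).

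C8a stood at 52.6 FPKM in tumour, 170.6 in precancerous and 154.3 in normal liver of males, and at 29.5 FPKM in tumour, 44.2 in precancerous and 18.4 in normal liver of females. The male tumour was below male normal liver and the female tumour above female normal liver. C8a was not called in either tissue comparison (edgeR adjusted p = 0.197 against precancerous and 0.553 against normal liver). C6 stood at 12.4 FPKM in tumour, 67.0 in precancerous and 77.5 in normal liver of males, and at 5.09 FPKM in tumour, 11.4 in precancerous and 4.51 in normal liver of females. Its log2 fold change of -1.68 against precancerous liver did not pass (SE 0.65, adjusted p = 0.12), the male difference being 5.40-fold and the female one 2.24-fold, both lower in tumour.

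Hc went apart from the other terminal genes. It had 316.2 and 242.5 FPKM in male and female tumour, against 282.7 and 200.3 in precancerous and 255.3 and 133.4 in normal liver. The tumour was the highest library in each sex, but edgeR made no call (log2 fold change 0.55 against normal liver, edgeR adjusted p = 0.103). DESeq2 called Hc higher in tumour than in normal liver (0.54, DESeq2 adjusted p = 0.0408). The make-up of C8 differed as well: C8g took 37.8% of the FPKM of the 3 subunit genes in male tumour, 18.0% in male precancerous and 22.6% in male normal liver. In females C8g took 41.2% in tumour, 35.4% in precancerous and 58.9% in normal liver. C8a and C8b lie 11130 bases apart on chromosome 4, and C8g lies on chromosome 2.

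**Figure D3:**
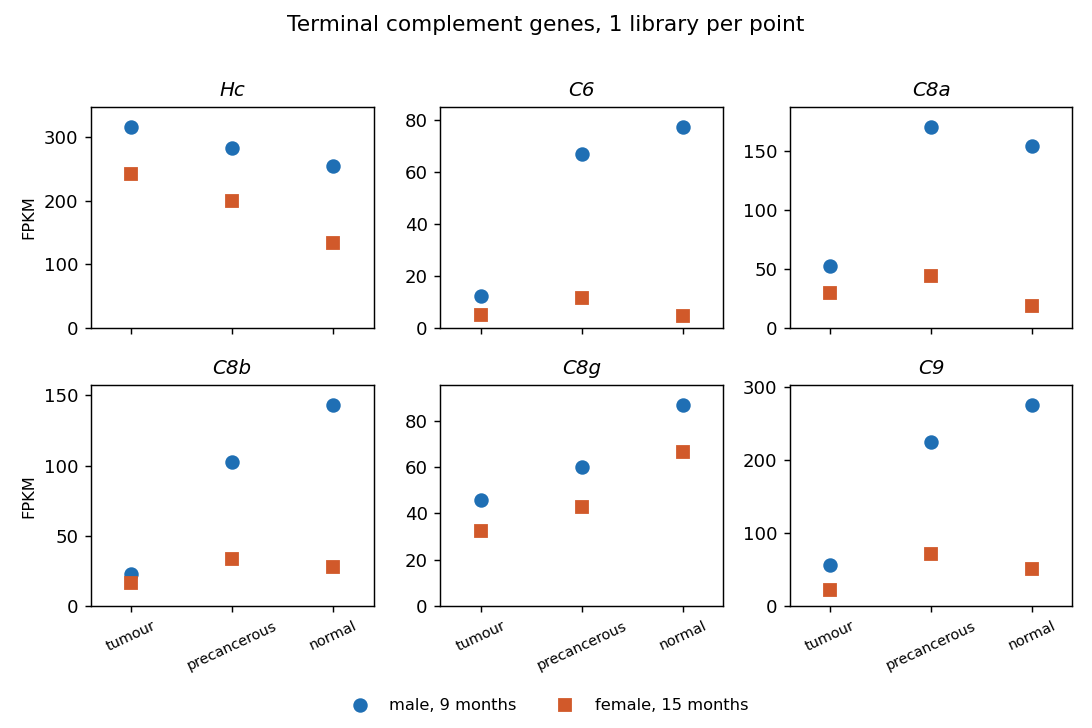
FPKM of the 6 terminal complement genes in tumour, precancerous and normal liver, 1 point per library, with males as circles and females as squares. C6, C8a, C8b and C9 are far higher in male than in female precancerous and normal liver, and the male tumour lies within or close to the female range; Hc and C8g keep a smaller gap.

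The 5 terminal genes called in any comparison are shown by the 160 bases before their RefSeq transcription start (GRCm38.p6), to set beside them the promoters of the fibrinogen genes further below. The windows are chr15:4727050-4727209 (plus strand), chr4:104876399-104876558 (minus strand), chr4:104766157-104766316 (plus strand), chr2:25501720-25501879 (minus strand) and chr15:6445186-6445345 (plus strand). They run 5′ to 3′ toward the start, and capitals mark a match to 1 of 3 searched motifs. RefSeq's start lies 35 bases from the table's gene start for C6 and 19 for C9, and at it for the others.
C6: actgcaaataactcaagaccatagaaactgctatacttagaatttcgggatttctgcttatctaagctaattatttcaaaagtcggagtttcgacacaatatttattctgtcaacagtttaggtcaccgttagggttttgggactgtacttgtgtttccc
C8a: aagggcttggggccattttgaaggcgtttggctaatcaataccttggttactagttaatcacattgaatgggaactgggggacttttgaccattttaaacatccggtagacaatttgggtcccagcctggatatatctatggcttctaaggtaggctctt
C8b: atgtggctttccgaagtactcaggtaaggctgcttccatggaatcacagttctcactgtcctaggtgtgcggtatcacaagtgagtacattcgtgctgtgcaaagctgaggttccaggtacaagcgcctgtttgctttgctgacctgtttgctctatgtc
C8g: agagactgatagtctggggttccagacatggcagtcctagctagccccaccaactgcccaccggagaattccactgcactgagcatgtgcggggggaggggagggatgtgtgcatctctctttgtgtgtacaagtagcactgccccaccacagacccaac
C9: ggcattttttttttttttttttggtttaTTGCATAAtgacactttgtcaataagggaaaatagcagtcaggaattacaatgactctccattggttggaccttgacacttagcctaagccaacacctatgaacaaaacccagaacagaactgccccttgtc

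The motifs, read on both strands, were TTGCNNAA for C/EBP factors, CTGGGAA for the interleukin-6 response element and TTCNNNGAA for STAT5. They are found in 5.84%, 5.87% and 4.36% of the 32851 RefSeq mouse promoter windows of the same length. Promoters of 29 of the 37 members were matched, with 31 windows, of which 19.4% held the C/EBP letters, 16.1% the interleukin-6 letters and 9.68% the STAT5 letters. In these 5 terminal windows C9 held 1 match, to C/EBP, which begins 132 bases before the start. C6, C8a, C8b and C8g held none of the 3. A match is a description of letters and not evidence of binding.

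Clotting factors moved in both directions. F11 and Klkb1 are neighbours on chromosome 8, 7410 bases apart, and encode factor XI and plasma prekallikrein, related proteases of the contact system. F11 stood at 73.0 FPKM in tumour, 41.7 in precancerous and 45.6 in normal liver of males, and at 91.6 FPKM in tumour, 42.8 in precancerous and 29.6 in normal liver of females. Both tumours lay above all 4 other libraries. F11 rose by 0.94 on the log2 scale against precancerous (SE 0.25, edgeR adjusted p = 0.0471) and by 1.12 against normal liver (SE 0.25, adjusted p = 0.0248). The call against precancerous liver was made in 4 of 9 alternative fits. It was lost with RLE scaling, with limma at either pseudocount, with the FPKM filter of 5 and with no sex term, at adjusted p up to 0.167.

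Klkb1 stood at 27.8 FPKM in tumour, 72.7 in precancerous and 79.5 in normal liver of males, and at 25.2 FPKM in tumour, 56.7 in precancerous and 66.8 in normal liver of females. Both tumours lay below all 4 other libraries, the reverse of its neighbour. Klkb1 fell by 1.31 on the log2 scale against precancerous (SE 0.14, edgeR adjusted p = 0.00533) and by 1.49 against normal liver (SE 0.14, adjusted p = 0.00254). The identity of this row is uncertain: the table calls it Klkb1, GENCODE M21 gives its identifier the name Gm45753, and 93.7% of its exonic bases lie under exons of Klkb1 or Cyp4v3 on the same strand. Cyp4v3 had 31.4 and 36.2 FPKM in male and female tumour, against 76.7 and 39.4 in precancerous and 91.9 and 47.8 in normal liver.

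Kng1 encodes kininogen, the cofactor of factor XI and prekallikrein and the source of bradykinin. It stood at 1192 FPKM in tumour, 622.5 in precancerous and 340.2 in normal liver of males, and at 1083 FPKM in tumour, 747.8 in precancerous and 443.0 in normal liver of females. The order was tumour, precancerous, normal in both sexes, with no overlap between tissues. Kng1 rose by 1.52 on the log2 scale against normal liver (SE 0.21, edgeR adjusted p = 0.00687) and missed the threshold against precancerous liver (log2 fold change 0.71, adjusted p = 0.0638). Its copy Kng2, with which it can share reads, had 184.8 and 145.4 FPKM in male and female tumour, against 121.5 and 105.3 in precancerous and 54.9 and 64.7 in normal liver. F12, the factor that starts contact activation, was not called in a tissue comparison (log2 fold change -0.17 against precancerous liver, adjusted p = 0.466).

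F7 and F10, neighbours 1498 bases apart on chromosome 8, encode factor VII, which tissue factor binds to start clotting, and factor X, which it activates. F7 stood at 43.1 FPKM in tumour, 86.6 in precancerous and 41.2 in normal liver of males, and at 43.1 FPKM in tumour, 91.0 in precancerous and 61.0 in normal liver of females. Precancerous liver was the highest library in each sex, and tumour and normal liver overlapped. F7 fell by 1.07 on the log2 scale against precancerous liver (SE 0.18, edgeR adjusted p = 0.0153), and against normal liver its log2 fold change was -0.26 (adjusted p = 0.317).

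F10 had 36.8 and 44.2 FPKM in male and female tumour, against 58.7 and 61.2 in precancerous and 58.1 and 81.1 in normal liver. It fell by 0.80 on the log2 scale against normal liver (SE 0.18, edgeR adjusted p = 0.024) and missed the threshold against precancerous liver (adjusted p = 0.0608). F9, the X-linked factor IX gene, had 80.8 and 58.2 FPKM in male and female tumour, against 115.7 and 81.6 in precancerous and 95.4 and 73.5 in normal liver. It fell by 0.53 against precancerous liver (SE 0.14, edgeR adjusted p = 0.0483), a call made in 5 of 9 alternative fits. Against normal liver F9 was not called (log2 fold change -0.32, edgeR adjusted p = 0.144). F13b, which carries the factor XIII transglutaminase in plasma, had 54.5 and 54.7 FPKM in male and female tumour, against 90.9 and 91.7 in precancerous and 85.1 and 104.1 in normal liver. F13b fell by 0.77 against precancerous (SE 0.16, edgeR adjusted p = 0.0237) and by 0.82 against normal liver (SE 0.16, adjusted p = 0.0156).

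F5 encodes factor V, the cofactor of factor X. It stood at 142.8 FPKM in tumour, 121.6 in precancerous and 87.8 in normal liver of males, and at 202.8 FPKM in tumour, 171.7 in precancerous and 123.9 in normal liver of females. The order was tumour, precancerous, normal in both sexes, and F5 rose by 0.67 on the log2 scale against normal liver (SE 0.16, edgeR adjusted p = 0.0299). F2, which encodes prothrombin, lay between 236.6 and 375.3 FPKM over the 6 libraries, with a log2 fold change of -0.07 against precancerous liver (adjusted p = 0.814).

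**Figure D4:**
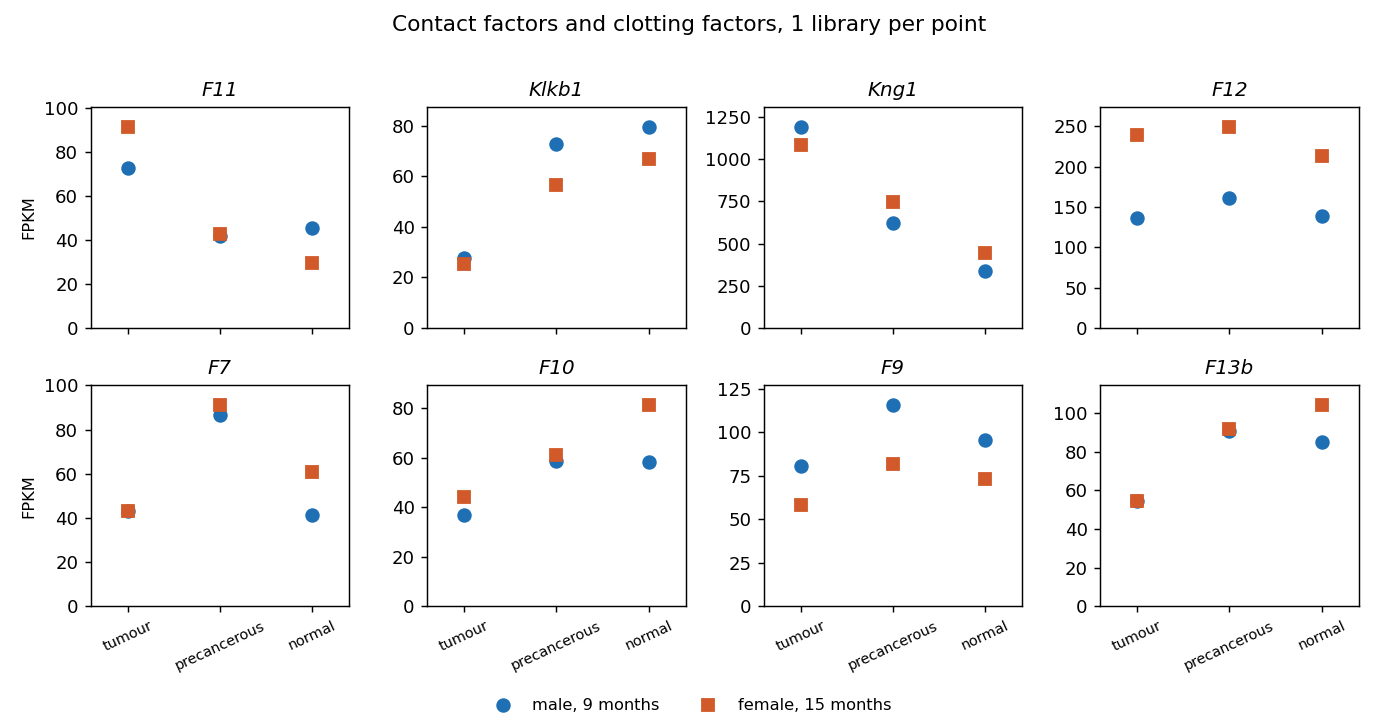
FPKM of 8 clotting and contact factor genes in tumour, precancerous and normal liver, 1 point per library, with males as circles and females as squares. F11 and Kng1 are highest in both tumours and Klkb1 lowest, while F7 is highest in precancerous liver of both sexes, at 86.6 and 91.0 FPKM.

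The fibrinogen genes Fga, Fgb and Fgg, which encode the 3 chains of 1 secreted protein, lie together on chromosome 3 from 83007724 to 83049863 and stayed among the highest members in every tissue. Fga had 1257 and 1874 FPKM in male and female tumour, against 1349 and 1427 in precancerous and 1233 and 1289 in normal liver. Fgb had 1345 and 1750 FPKM in male and female tumour, against 1340 and 1357 in precancerous and 1128 and 1073 in normal liver. None of the 3 genes was called in any comparison by edgeR. Their log2 fold changes between tumour and precancerous liver were 0.12, 0.16 and -0.03 for Fga, Fgb and Fgg, with adjusted p = 0.735, 0.623 and 0.944.

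Fgg had 1367 FPKM in tumour, 1806 in precancerous and 1671 in normal liver of males, and 1728 FPKM in tumour, 1334 in precancerous and 1325 in normal liver of females. In males the tumour was the lowest of the 3 and in females the highest. Of the FPKM of the 3 chains, Fgg made up 34.4% in male tumour, 40.2% in male precancerous and 41.4% in male normal liver. In females it made up 32.3% in tumour, 32.4% in precancerous and 35.9% in normal liver. In GENCODE 5.49% of the exonic bases of Fgg lie under an exon of Gm30097 on the opposite strand.

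The promoters of the 3 fibrinogen genes are shown because their genes are expressed together at like levels. The windows are chr3:83025993-83026152 (plus strand), chr3:83049864-83050023 (minus strand) and chr3:83007564-83007723 (plus strand), from RefSeq on GRCm38.p6, 5′ to 3′ toward the start, with capitals for matches to the same 3 motifs. RefSeq's start of Fga lies 77 bases from the start in the table.
Fga: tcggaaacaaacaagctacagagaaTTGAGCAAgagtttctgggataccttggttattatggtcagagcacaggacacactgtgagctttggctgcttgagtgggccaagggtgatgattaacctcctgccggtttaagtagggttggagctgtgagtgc
Fgb: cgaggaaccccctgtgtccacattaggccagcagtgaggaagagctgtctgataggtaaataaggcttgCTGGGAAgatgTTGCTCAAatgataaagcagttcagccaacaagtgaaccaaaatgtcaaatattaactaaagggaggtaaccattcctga
Fgg: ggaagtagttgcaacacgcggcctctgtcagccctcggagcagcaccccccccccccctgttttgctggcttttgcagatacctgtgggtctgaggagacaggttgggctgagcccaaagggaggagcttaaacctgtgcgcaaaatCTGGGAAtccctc
Fgb held the C/EBP and interleukin-6 letters, beginning 80 and 91 bases before the start. Fga held the C/EBP letters at 135 bases, and Fgg the interleukin-6 letters at 13 bases. No match overlapped another. None of the 3 windows held the STAT5 letters.

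Among the inhibitors and genes of fibrinolysis, every fitted difference between tissues was under 2-fold. Cfi encodes factor I, the protease that inactivates C3b and C4b. It had 516.8 and 401.3 FPKM in male and female tumour, against 402.6 and 352.6 in precancerous and 246.0 and 234.4 in normal liver, with the same order in both sexes. Cfi rose by 0.89 on the log2 scale against normal liver (SE 0.17, edgeR adjusted p = 0.0159). Serpinf2, which encodes antiplasmin, the inhibitor of plasmin, had 329.7 and 357.4 FPKM in male and female tumour, against 197.9 and 261.5 in precancerous and 177.5 and 256.4 in normal liver. It rose by 0.66 against normal liver (SE 0.18, adjusted p = 0.046).

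The protein C system shuts off factors V and VIII, and its genes Proc and Pros1 were each called in 1 of the tumour comparisons, Proc against normal and Pros1 against precancerous liver. Proc, the protein C gene, had 149.6 and 140.4 FPKM in male and female tumour, against 215.5 and 192.8 in precancerous and 205.9 and 223.2 in normal liver. It fell by 0.60 on the log2 scale against normal liver (SE 0.16, edgeR adjusted p = 0.0403) and missed the threshold against precancerous liver (adjusted p = 0.0669). Pros1, the gene of its cofactor protein S, had 19.6 and 11.6 FPKM in male and female tumour, against 27.7 and 16.4 in precancerous and 19.5 and 11.8 in normal liver. It fell by 0.53 against precancerous liver (SE 0.11, adjusted p = 0.0246), and tumour and normal liver were nearly equal.

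Serpinc1 (antithrombin), Serpind1 (heparin cofactor II), Plg (plasminogen) and Cpb2, whose product protects fibrin from plasmin, were not called in any comparison by edgeR. DESeq2 called Plg lower in tumour than in precancerous liver and in males than in females (adjusted p = 0.00585 and 0.00035), and Cpb2 higher in tumour than in normal liver (adjusted p = 0.0345). The edgeR log2 fold changes of Serpinc1, Serpind1, Plg and Cpb2 between tumour and precancerous liver were -0.14, 0.29, -0.45 and 0.31, with edgeR adjusted p = 0.618, 0.24, 0.124 and 0.425. Cpb2 differed most among them, at 329.1 and 502.4 FPKM in male and female tumour, against 333.9 and 318.3 in precancerous and 263.4 and 218.6 in normal liver. The female tumour alone stood apart. Exons of other genes on the opposite strand cover 34.4% of the exonic bases of Serpinc1 and 11.3% of those of Plg.

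Precancerous liver of transgenic mice was set against normal liver of wild-type mice. No member was called in either direction, where 0.105% of all tested genes were called higher and 0.149% lower by edgeR. At an unadjusted p under 0.05, 6 members were higher and 2 lower, where 8.54% and 7.27% of all tested genes were. DESeq2 called 5 higher (C4b, F5, F7, Kng1 and Cfi) and 1 lower (C8g), where it called 1.84% of all tested genes higher and 1.38% lower. The largest edgeR estimates among these were 0.81 for F7 (SE 0.18, adjusted p = 0.161), 0.81 for Kng1 (SE 0.21, adjusted p = 0.199) and 0.69 for C4b (SE 0.17, adjusted p = 0.186). C4b had 314.2 and 466.5 FPKM in male and female precancerous liver, against 200.6 and 281.7 in normal liver.

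Within single sexes, where 1 library stands against 1 and no test is possible, members at least 2-fold lower in tumour than in precancerous liver on the log2(FPKM + 1) scale numbered 8 in males and 7 in females. Over all tested genes 4.7% were that much lower in males and 4.85% in females. The male set was Mbl1, Mbl2, Masp1, C6, C8a, C8b, C9 and Klkb1, and the female set held Mbl1, Mbl2, Masp1, C6, C9, Klkb1 and F7. On that scale F7 in males and C8b in females fell just short, at -0.989 and -0.983. By FPKM alone they were 2.01-fold and 2.03-fold lower in tumour. At least 2-fold higher were 0 members in the male pair and 1 in the female pair, F11, where all tested genes gave 6.64% and 5.94%. The sets thus named 6 members in common. The share of all tested genes that were this much lower in both sexes was not counted, so the 6 have no background beside them.

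Males were compared with females over the 3 tissues, with 9-month males against 15-month females. Of the 37 members 6 were higher in males and 3 lower, where 19.1% of all tested genes were called higher and 18.2% lower. Terminal complement held 4 of the 6: C6, C8a, C8b and C9. Mbl1 and Pros1 were the others, and C4b, F5 and F12 were lower in males. No member was called in either direction without the male or without the female precancerous library, C4b, C8a, C8b and F5 were lost also without either normal library and F5 without the female tumour, and without the male tumour library 5 members were called lower.

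C6 was higher in males by 2.56 on the log2 scale (SE 0.57, edgeR adjusted p = 0.0239, higher in 3 of 3 tissues). The male-to-female ratio of FPKM was 2.44 in tumour, 5.87 in precancerous and 17.2 in normal liver. C8a was higher by 1.86 (SE 0.45, adjusted p = 0.0297), with ratios of 1.78 in tumour, 3.86 in precancerous and 8.38 in normal liver. C8b and C9 had ratios of 1.40 and 2.57 in tumour, 3.03 and 3.15 in precancerous and 5.08 and 5.34 in normal liver. For all 4 genes the male excess was smallest in tumour and largest in normal liver. Hc (1.30, 1.41 and 1.91 in tumour, precancerous and normal liver) and Mbl1 (1.66, 1.88 and 2.14) had the same order. C8g, C1s1 and Cfi had the reverse order, with C8g at 1.42, 1.40 and 1.30. With 1 library in each group the difference of these ratios between tissues was not tested. C8b was higher in males by 1.40 on the log2 scale (SE 0.37, adjusted p = 0.039) and C9 by 1.72 (SE 0.24, adjusted p = 0.00838).

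C8g and Hc did not pass between the sexes by edgeR (log2 fold changes 0.37 and 0.51, edgeR adjusted p = 0.0522 and 0.0673), though both had a higher FPKM in males in every tissue. DESeq2 called both higher in males (DESeq2 adjusted p = 0.0126 and 0.0127). Mbl1 was higher in males by 0.83 (SE 0.11, adjusted p = 0.00834) and Pros1 by 0.66 (SE 0.09, adjusted p = 0.00802), each in 3 of 3 tissues. F12 was lower in males, at 136.9 FPKM in male against 239.7 in female tumour, 160.7 against 249.4 in precancerous and 138.4 against 212.8 in normal liver. Its log2 fold change was -0.78 (SE 0.13, adjusted p = 0.0123). F5 and C4b had log2 fold changes of -0.59 and -0.63 (SE 0.13 and 0.14, adjusted p = 0.0242 and 0.0234).

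At least 2-fold higher in the male library were 2 members in tumour, 4 in precancerous and 5 in normal liver, where 6.72%, 6.88% and 7.73% of all tested genes were that much higher. The 2 in tumour were C6 and C9, C8a and C8b joined them in precancerous liver, and Mbl1 in normal liver. No member was at least 2-fold lower in males in any tissue, where the shares of all tested genes were 1.51%, 2.07% and 3.27%.

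**Figure D5:**
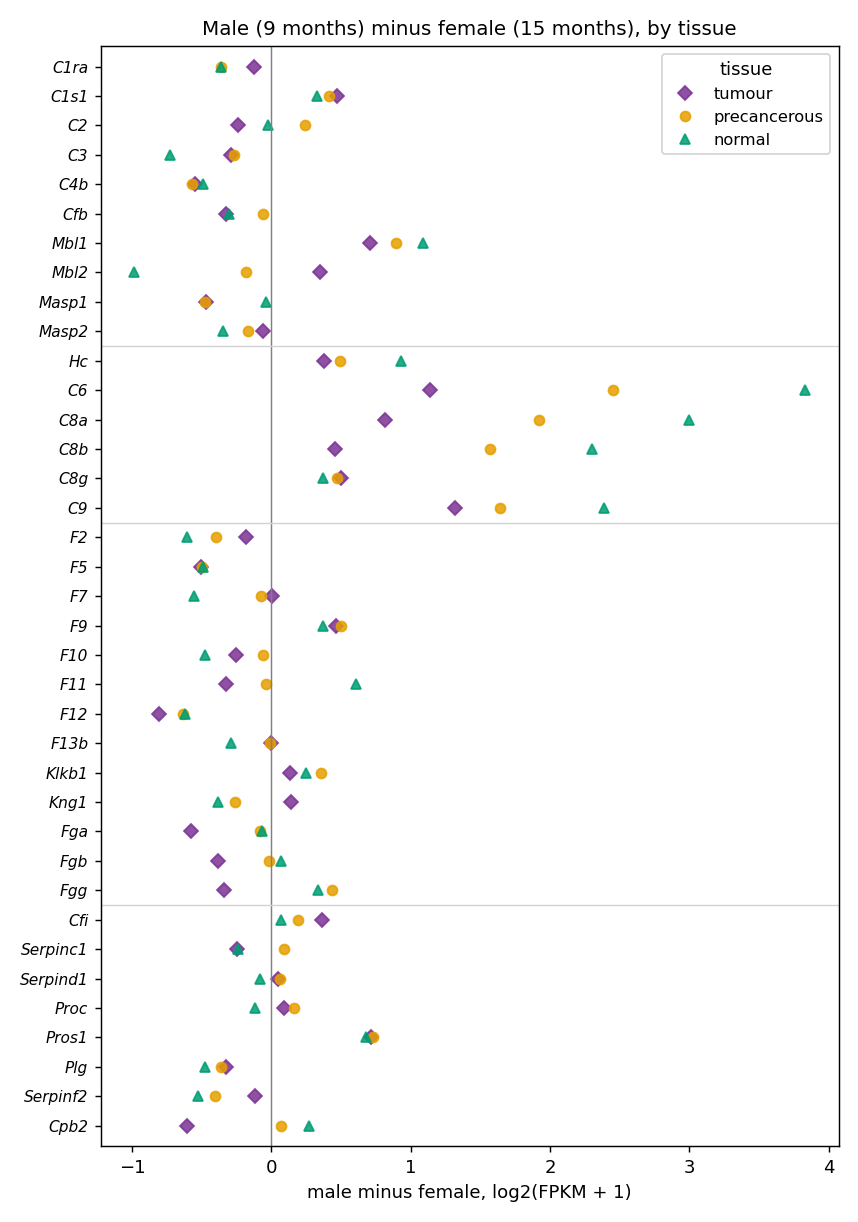
Difference of log2(FPKM + 1), male (9 months) minus female (15 months), for each of the 37 members in tumour (diamonds), precancerous (circles) and normal liver (triangles), 1 library against 1. For precancerous and normal liver, C6, C8a, C8b and C9 lie furthest right, with the normal liver point at 3.83 for C6 and the tumour point nearest to 0 for all 4.

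C4a is a near-identical copy of C4b, known in mice as the sex-limited protein gene, and is no member. It stood at 1.59 FPKM in tumour, 19.5 in precancerous and 12.4 in normal liver of males, and at 0.797, 0.447 and 0.367 FPKM in female tumour, precancerous and normal liver. It was higher in males by 3.85 on the log2 scale (SE 0.98, edgeR adjusted p = 0.0348). Reads that fit both copies could have been split in counting, which makes the levels of both uncertain.

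Other genes of the 2 systems were counted from lists chosen with earlier results of these data known. Of 31 further complement genes 23 were tested, and between tumour and precancerous liver 11 fell and 1 rose, beside 12.1% and 13.8% of all tested genes. Their median log2 fold change was -0.65. Of the 11, C1qa, C1qc and Vsig4 are also macrophage markers, a list of which 9 of 12 fell. Clec4f, which marks Kupffer cells, had 6.59 and 7.88 FPKM in male and female tumour, against 56.3 and 50.1 in precancerous liver. The part of these cells in the count was not tested. Colec10 and Fcna, further recognition molecules of the lectin pathway, had log2 fold changes of -2.35 and -3.08 (edgeR adjusted p = 0.00208 and 0.00224). Colec10 had 2.79 and 2.19 FPKM in male and female tumour, against 13.3 and 11.4 in precancerous liver. Cfhr3, a gene related to factor H, fell by 1.42 (adjusted p = 0.0331). C4bp, which encodes the inhibitor of C4b, was the gene that rose, by 0.68 (adjusted p = 0.0389).

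Of 23 further coagulation genes 17 were tested, and 3 rose and 3 fell, beside 13.8% and 12.1% of all tested genes. Plat, the gene of tissue plasminogen activator, stood at 6.29 and 3.86 FPKM in male and female tumour, against 0.172 and 0.131 in precancerous liver, where it had 3 and 5 counts, so the size of its change is imprecise. It rose by 4.95 on the log2 scale (SE 0.31, edgeR adjusted p = 0.00271). Plaur rose by 2.01, while F8, the factor VIII gene, Tfpi and Proz fell by 1.12, 0.82 and 0.78 (adjusted p = 0.0103, 0.00543, 0.0255 and 0.0227).

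The vitamin K cycle lets factors II, VII, IX and X and proteins C and S bind calcium. Of its 3 genes Vkorc1, the target of warfarin, fell by 0.87 on the log2 scale between tumour and precancerous liver (SE 0.15, edgeR adjusted p = 0.0163). Ggcx and Vkorc1l1 had log2 fold changes of 0.22 and -0.01 (adjusted p = 0.239 and 0.952).

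Of 11 liver transcription factor genes 3 fell and 1 rose between tumour and precancerous liver, beside 12.1% and 13.8% of all tested genes. Onecut1 and Nr1h4, the bile acid receptor gene, fell by 1.84 and 1.46 on the log2 scale (edgeR adjusted p = 0.00355 and 0.00683). Prox1 fell by 0.49 and Foxa3 rose by 0.93 (adjusted p = 0.0442 and 0.00658). Hnf4a had a log2 fold change of 0.07 (adjusted p = 0.788). Cebpa, which encodes a C/EBP factor, stood at 5.19 FPKM in female normal liver and between 31.8 and 54.2 FPKM in the other 5 libraries, and was not called in any comparison by edgeR. Of 17 genes of interleukin-6 signalling and the acute phase 4 fell and 1 rose, beside the same shares. The male normal library stood apart for the serum amyloid genes of this list, and the female normal library was lowest for Hp and Hpx (1025 and 1872 FPKM). Saa1 had 2002 FPKM in male against 32.8 in female normal liver, Saa2 1658 against 27.0 and Saa3 79.8 against 3.52, and none of these serum amyloid genes was called in any comparison by edgeR. Between tumour and precancerous liver, Il6ra, which encodes a subunit of the interleukin-6 receptor, fell by 1.35 and the pentraxin gene Crp fell by 1.86 (adjusted p = 0.00687 and 0.00358). Il6st, which encodes the receptor's signalling partner, had a log2 fold change of -0.996 and Fgl1 one of -0.82 (adjusted p = 0.00935 and 0.027). The pentraxin gene Apcs rose by 0.78 (adjusted p = 0.0445).

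Markers of other cells moved with the same tissues, and their part in the members' differences was not tested. The 7 hepatocyte markers found summed to 77440 and 75560 FPKM in male and female tumour, against 53230 and 59600 in precancerous and 37130 and 54760 in normal liver. Alb made up most of the sum, at 53380 and 54600 FPKM in male and female tumour. Alb, Ahsg, Ambp and Rbp4 had more FPKM in tumour than in precancerous liver in both sexes. Apoh and Ttr had less in both sexes, and Apoa1 had more in males and less in females. None of the 7 was called between tumour and precancerous liver; Ttr was called lower in tumour than in normal liver. All 12 listed macrophage markers were tested and summed to 213.1 and 349.1 FPKM in male and female tumour, against 421.0 and 627.2 in precancerous and 292.8 and 458.2 in normal liver; 9 of them fell against precancerous liver, among them C1qa and C1qc, which encode chains of C1q. Stellate cell and fibroblast markers summed to 84.6 and 128.3 FPKM in male and female tumour, against 93.6 and 164.4 in precancerous liver, with 5 of 8 higher and 2 lower. The 5 higher were Col1a1, Col1a2, Col3a1, Acta2 and Pdgfrb. Dcn, called lower, was the largest part of the sum, at 43.4 and 71.1 FPKM in male and female tumour, against 74.4 and 140.5. Endothelial markers summed to 47.7 and 53.4 FPKM in male and female tumour, against 66.6 and 79.9 in precancerous liver, with 1 of 7 tested higher and 2 lower. Cholangiocyte markers summed to 121.0 and 138.7 FPKM in male and female tumour, against 9.00 and 14.7 in precancerous liver, with 2 of 3 tested higher, Sox9 and Spp1. Spp1 alone had 115.4 and 129.0 FPKM in male and female tumour, while Krt19 and Krt7 were at most 1.07 and 0.208 FPKM in any library. Markers of T, NK and B cells, of which Cd3e and Nkg7, the 2 tested, were called higher in tumour than in precancerous liver, of neutrophils and of platelets summed to at most 7.35 FPKM each in any library, with Ly6g, Mpo, Elane, Cd3d, Gzma or Gp9 at 0 in some of them.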

How the data were processed

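Messenger RNA of 6 mouse liver libraries was measured by stranded RNA sequencing, 1 library per group. The authors deposited 1 table with raw counts and FPKM per gene and library. Per the submitters' processing notes, TopHat2 2.0.9, Cuffdiff and the GRCm38 (mm10) genome were used. The counting tool and its strand setting are not given in the sources used here. For genes with at least 10 counts, the ratio of deposited FPKM to the count's share of its library was the same in every library as in male normal liver, within 0.999919 to 1.00008.

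Counts were tested with edgeR 4.0.16 (R 4.3.3) by quasi-likelihood, with TMM scaling and terms for sex and tissue over all 6 libraries, which leaves 2 residual degrees of freedom. Genes reaching 1 FPKM in 2 libraries or more were kept, and p-values were adjusted by Benjamini-Hochberg over all 11435. Scripts were tested on simulated data. Single pairs of libraries were compared as differences of log2(FPKM + 1), computed from the deposited FPKM, with no test. Alternatives were RLE scaling, DESeq2 1.42.0, limma 3.58.1 on log2(FPKM + 1) and log2(FPKM + 0.1), other filters, fewer libraries and no sex term. A fit with library totals and no TMM was added after seeing the data. Every member is named, with the value in every library for called members and for the 2 of each role that differed most between matched libraries. From each other list up to 4 called genes were named by size, and the rest after their values were seen; some genes of these lists are not reported here. The members and lists were chosen with earlier results of these data known. A count of 0 allows up to 3 counts, or 0.163 to 0.5 FPM (fragments scaled to library total) over the libraries; intervals and floors cover counting error only.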

Additional observations from a re-analysis of the deposited data

Results flagged for a closer look

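C8a, the gene of the alpha subunit of C8, moved in opposite directions in the sexes between tumour and normal liver. On the log2(FPKM + 1) scale the difference was -1.54 in males, at 52.6 FPKM in tumour against 154.3 in normal liver. It was 0.65 in females, at 29.5 FPKM in tumour against 18.4 in normal liver. The male difference less the female difference was -2.19. With 1 library in each group this difference was not tested.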

How the results depend on the processing

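No called member changed direction under any alternative run. DESeq2 kept all 36 calls and RLE scaling 35, limma 33 with either pseudocount, no filter 34, the FPKM filter of 5 kept 32, and library totals without TMM 35. Between tumour and precancerous liver, members called higher (1) numbered 3 with DESeq2, 0 with RLE scaling, with limma and with no sex term, and 0 to 1 with a library left out; those called lower (11) numbered 18 with DESeq2, 0 with no sex term and 1 to 13 with a library left out. Between precancerous and normal liver DESeq2 called 5 higher and 1 lower, against 0 and 0. Between tumour and normal liver, members called higher (5) numbered 1 in the 4 libraries alone, 1 with no sex term and 1 to 3 with a library left out; those called lower (10) numbered 6, 1 and 5 to 8. Between males and females, members called higher (6) numbered 10 with DESeq2, 10 with limma and 0 to 6 with a library left out; those called lower (3) numbered 8 with DESeq2, 6 with the FPKM filter of 5 and 0 to 5. The fits with a library left out have 1 residual degree of freedom, and those with no sex term put the male to female difference into the error. The cause of any of these changes was not tested. No scaling moved the median of all genes by more than 0.0911 on the log2 scale. The sex term already compares tissues within each sex, and the labels give no replicate numbers for a further pairing. Of single calls, F11 between tumour and precancerous liver was lost with RLE scaling, limma and the FPKM filter of 5, Mbl2 there and C8b between tumour and normal liver with limma and that filter, F9 with no filter and with library totals, Serpinf2 with no filter, and C8b between the sexes with the FPKM filter of 5. The lowest count of any member was 269; what more depth or more libraries would change was not tested.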
